A study of Drosophila melanogaster with 6 samples.

Results

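Klumpfuss (Klu) is a zinc finger transcription factor that acts in the enteroblasts of the Drosophila midgut, the precursor cells that mature into absorptive enterocytes. The peaks described here are the Klu-Dam peaks that lay wholly inside a long gene. A peak was taken when exactly 1 gene was listed at distance 0 from it, when both of its edges fell between the start and the end of that gene, and when that gene spanned 20000 bp or more. Of the 1122 distinct coherent peaks, 227 (20.2%) met this rule, and they were listed with 181 gene names. Of the other coherent peaks, 311 lay inside a shorter gene, 214 crossed the edge of 1 gene, 257 touched more than 1 gene, and 113 had no gene at distance 0.

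Targeted DamID marks the places that a protein visits by fusing it to the bacterial Dam methylase, which methylates the adenine of nearby GATC sites. The fragments between methylated sites are then recovered, amplified by PCR and read. The 3 Klu-Dam libraries (genotype esgts, UAS-Flp, UAS-Klu Dam) and the 3 Dam-only libraries (esgts, UAS-Flp, UAS-Dam control) came, per the labels, from pools of 30 to 40 midguts (the study's methods give a wider range) of flies reared at 18 °C and induced for 24 h, with replicate sets prepared on different dates. In all of them, a temperature-sensitive esg driver switched on a Flp recombinase in Esg-positive stem and progenitor cells, which removed a stop cassette in front of a Dam transgene with a minimal heat-shock promoter. DNA was taken from complete midguts, so unlabelled cells supplied unmethylated DNA. The tables analysed here give reads per peak for Klu-Dam replicates 1, 2 and 3 only, and the Dam-only libraries entered through the authors' peak calling. A level is given below in CPM, reads per 1000000 reads in coherent peaks of the same library. Those totals were 19521921, 18287201 and 18347327 reads. Whether methylation at a peak came from stem cells or enteroblasts cannot be told apart.

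Long fly genes owe most of their length to introns. Their introns often hold enhancers, alternative transcript starts and small nested genes, and many of these genes encode transcription factors, receptors, adhesion proteins and giant cytoskeletal proteins. A transcription factor that binds inside such a gene can therefore sit far from any transcript start. Among the genes that held a peak of this kind were Cyclin E (CycE), which drives entry into S phase, the integrin subunit gene mew, the Wingless receptor gene fz2, the titin gene sls and the insulin receptor gene InR.

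The sequences below are shown because peaks of this class shared a short run of bases around some of their GATC sites. Words of 8 bases, read on both strands, were ranked by the share of the 227 peaks that held them minus their share among 5282 windows of 1734 bp from the same genes outside any peak. The leading word was CGAGGATC. It occurred in 74 peaks (32.6%, 95% exact interval 26.5 to 39.1%) and in 2.52% of the windows. The interval does not cover the choice of the word, which was made in the same peaks. The next words in the ranking, TCCTCGGC, CCGAGGAT and GGCCGAGG, overlap it or its extension to the left on one strand or the other. Extended on its 5′ side by the base found there most often, the run became GCCGAGGATC, held by 19 peaks (8.37%) and by 0.114% of the windows. In the sequences below, 40 bases are shown on either side of the 8-base run, 5′ to 3′ on the strand on which the run reads forward, with capitals on the bases that match the 10-base run. Coordinates are those of the files (dm6), and bases were read from the RefSeq Release 6 genome.
SKIP, chr3R:22292322-22292409, plus strand, coding exon: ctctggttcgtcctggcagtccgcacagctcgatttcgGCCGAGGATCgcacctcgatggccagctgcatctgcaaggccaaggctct
raw, chr2L:8734606-8734693, plus strand, coding exon: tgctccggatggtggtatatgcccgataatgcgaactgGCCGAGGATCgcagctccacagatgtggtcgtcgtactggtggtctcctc
NFAT, chrX:13649727-13649814, minus strand, coding exon: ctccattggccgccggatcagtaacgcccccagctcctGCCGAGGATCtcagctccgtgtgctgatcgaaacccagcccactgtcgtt
CycE, chr2L:15730613-15730700, minus strand, coding exon: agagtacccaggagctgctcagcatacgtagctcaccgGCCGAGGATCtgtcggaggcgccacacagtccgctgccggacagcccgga
mew, chrX:13240386-13240473, minus strand, intron: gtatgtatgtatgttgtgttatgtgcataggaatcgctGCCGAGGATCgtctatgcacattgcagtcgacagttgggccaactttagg
T48, chr3R:26901007-26901094, minus strand, intron: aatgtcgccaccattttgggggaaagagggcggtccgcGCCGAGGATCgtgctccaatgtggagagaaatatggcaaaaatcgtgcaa
CR32773, chrX:4563109-4563196, plus strand, intron: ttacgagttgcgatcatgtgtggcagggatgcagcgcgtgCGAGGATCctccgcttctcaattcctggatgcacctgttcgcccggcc
CR32773, chrX:4565009-4565096, minus strand, intron: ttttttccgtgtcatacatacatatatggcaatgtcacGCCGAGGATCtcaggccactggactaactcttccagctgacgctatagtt
cv-c, chr3R:14427035-14427122, minus strand, coding exon: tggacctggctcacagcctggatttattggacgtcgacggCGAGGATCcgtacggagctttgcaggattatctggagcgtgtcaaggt
fry, chr3L:9670760-9670847, minus strand, coding exon: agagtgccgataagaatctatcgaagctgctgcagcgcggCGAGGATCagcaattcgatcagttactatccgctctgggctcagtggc
Imp, chrX:10812634-10812721, plus strand, intron: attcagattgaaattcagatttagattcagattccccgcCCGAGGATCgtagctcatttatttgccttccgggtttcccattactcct
pnt, chr3R:23343846-23343933, minus strand, intron: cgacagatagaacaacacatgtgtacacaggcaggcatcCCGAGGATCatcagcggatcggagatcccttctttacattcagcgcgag

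The run had a place and a direction within the peaks. All peak edges in the deposited table fall inside a GATC site, so each peak is a row of GATC fragments, with a median of 5 fragments in this class. The run ends in GATC, so each occurrence belongs to 1 GATC site and points either towards the centre of the peak or away from it. With the edge sites included, the 227 peaks held 104 runs in 95 peaks (41.9%). Of these runs, 81 lay at an edge site or at the second site from an edge, and 79 of the 81 read inward. At the second site, 12.3% of the inward-facing site ends carried the run, against 0.441% of the outward-facing ones. At the edge sites themselves, 5.07% of the inward-facing ends and 0 of 454 outward-facing ends carried it. Over the GATC sites of the same genes outside peaks, 0.321% of site ends carried the run, and over the 6 chromosome arms 0.420% did. The 2 runs of the CR32773 peak shown above stand near opposite ends of that peak, on opposite strands, and both read inward.

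**Figure D1:**
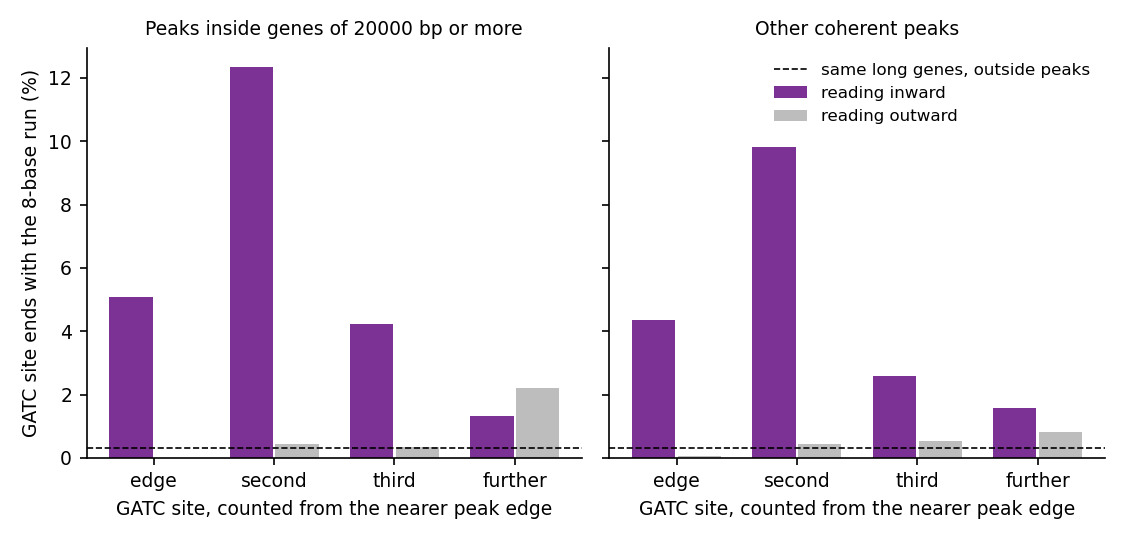
Share of GATC site ends (%) that carry the 8-base run, by the place of the site counted from the nearer edge of its peak and by whether the run reads towards the peak centre (purple) or away from it (grey), in the 227 peaks inside long genes (left) and in the other 895 coherent peaks (right). The dashed line marks the 0.321% found at GATC sites of the same long genes outside peaks. The inward bar of the second site stands highest in both panels, at 12.3% and 9.83%.

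The same pattern was present outside long genes, so it was not particular to this class. In the other 895 peaks, 9.83% of the inward-facing ends of second sites carried the run, against 0.447% of the outward-facing ones, and 254 of 263 runs at edge and second sites read inward. In both classes the share of runs in coding exons was above that of the GATC sites of the same peaks, which was not tested. Of the 104 runs inside long genes, 53 (51.0%) lay in a coding exon and 37 (35.6%) in an intron or non-coding exon, whereas 30.9% and 54.9% of all GATC sites in these peaks did. In the other peaks 66.8% of the runs and 43.3% of the GATC sites lay in coding exons. The study's methods cite a published protocol for the amplification. The amplification primer was not compared with the run, because its sequence is not given in the sources used here. The parts of the amplification and of Klu in the run were not tested.

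Peaks with a longer match to the run had higher median levels, inside long genes and elsewhere. The 132 peaks with the run at no site had a median of 105 CPM (mean of the 3 libraries). The 47 peaks whose best match was 8 bases had a median of 126 CPM, the 25 with 9 bases 273 CPM, and the 23 with 10 bases 1225 CPM. The order held in replicates 2 and 3. In replicate 1 the medians were 108, 98.4, 258 and 1187 CPM, so there the 8-base group lay just below the peaks without a run. The groups overlapped widely, with quartiles of 56.3 and 283 CPM in peaks without the run and of 191 and 4868 CPM in those with 10 bases. In the other peaks the medians were 123, 190, 245 and 2039 CPM. Together the 95 peaks with a run held 56.4, 55.5 and 64.3% of the reads of the class in replicates 1, 2 and 3, and runs elsewhere held 69.4, 68.4 and 71.1% of the reads of the other peaks. Of the 20 peaks with the highest level 14 carried a run, and of the 20 with the lowest level 3 did. These groups also differed in width, with medians of 1726, 1573, 1846 and 2342 bp inside long genes for 0, 8, 9 and 10 bases. Elsewhere the widths were 1592.5, 1703, 1853 and 2405 bp. Per kb of width, the 74 peaks with the run within their sequence had a median of 177 CPM, against 63.7 CPM in the remaining 153. The parts of the run and of the width in the levels were not tested.

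The study scanned its peaks with published models of the Klu binding motif and reported matches for part of the bound genes. Those models were not used here. The zinc fingers of Klu resemble those of the mammalian WT1 and EGR1 proteins, which bind a 9-base site that contains GCGTGGG. This 7-base word, read on both strands, occurred in 49 of the 227 peaks (21.6%, exact interval 16.4 to 27.5%), in 19% of the other peaks, in 14.1% of the windows from the same genes and in 12.5% of windows of the same length over the 6 arms. In windows of 1734 bp around the midpoints it occurred in 18.5% of the peaks and 18.2% of the other peaks. The overlapping word GTGGGCG from the same site occurred in 37.0% of the peaks, 32.7% of the other peaks and 25.9% of the windows, and around the midpoints in 40.1 and 31.5%. The peaks were also richer in G and C, with a median of 44.1% against 41.7% over the windows. In the T48 peak the first word runs on into the second, and in the NFAT peak it follows a GATC site directly. T48, a gene of cell-shape change in gastrulation that was picked after its values were seen, held 73223, 56812 and 120678 reads (4478 ± 1846 CPM) in this peak. A further T48 peak held 170 ± 24.2 CPM. The T48 and NFAT matches are shown with the word in capitals, and a match is a description of the sequence and not evidence of binding.
T48, chr3R:26899523-26899609, plus strand, intron: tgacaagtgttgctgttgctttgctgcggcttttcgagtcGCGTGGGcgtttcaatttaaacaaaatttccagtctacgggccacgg
NFAT, chrX:13647572-13647658, plus strand, intron: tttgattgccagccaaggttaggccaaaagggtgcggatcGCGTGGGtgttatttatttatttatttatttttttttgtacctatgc

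Levels inside long genes spanned more than 3 orders of magnitude. The highest of all 1122 coherent peaks lay in this class, in CG2022 (named plh in the reference, FBgn0037292), at chr3R:4993941-4997663. Its libraries held 947808, 790792 and 400618 reads in order of replicate, with a mean of 37876 ± 14143 CPM (SD, n = 3). Replicate 3 was the lowest of its libraries, and every one of the 3 stood above the next peak of the class in the same library. The midpoint lay in the first intron, 15229 bp from the 5′ end of the gene. No run was found at any of its sites, and the 200 bases at its centre, with GATC in capitals, are shown for contrast with the sequences above.
CG2022, chr3R:4995702-4995901, plus strand, intron: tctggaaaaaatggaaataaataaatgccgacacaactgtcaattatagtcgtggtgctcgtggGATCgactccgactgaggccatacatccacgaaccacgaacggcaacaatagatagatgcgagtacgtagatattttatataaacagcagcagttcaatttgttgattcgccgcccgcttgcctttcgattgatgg

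The second highest peak of the class lay in SKIP, whose product interacts with a Shal-type potassium channel in the fly. At chr3R:22291296-22294278 it held 398473, 319137 and 261859 reads, or 17378 ± 3070 CPM, and it overlapped the microRNA gene mir-1010, so that its midpoint counted as a promoter although it lay 118540 bp from the nearest SKIP start. A further SKIP peak, at chr3R:22135747-22139809, lay 3943 bp from a SKIP start and held 121949, 83969 and 51669 reads (4552 ± 1716 CPM). The peak near the start was the lower one in each of the 3 libraries.

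The peak of raw, a gene that restrains JNK signalling in the embryo, held 211282, 158474 and 296180 reads (11877 ± 3848 CPM) at chr2L:8733782-8736880, 466 bp from one of the raw starts. NFAT, which encodes the fly relative of the NFAT transcription factors, held 118107, 133448 and 158421 reads (7327 ± 1293 CPM) in its first intron. The peak of cv-c held 141626, 126726 and 109591 reads (6719 ± 666 CPM). The raw peak was the highest of these 3 in every library, while NFAT lay below cv-c in replicate 1 and above it in replicates 2 and 3.

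CycE held 151008, 114954 and 91502 reads (6336 ± 1375 CPM) over its 3′ part, at chr2L:15727625-15730654. A further CycE peak, in an intron at chr2L:15742485-15744632, held 143 ± 29.6 CPM. At 20570 bp the listed length of CycE is just above the limit of the rule. CG42666 (prage) held 98867, 80486 and 110164 reads (5157 ± 806 CPM), and the long non-coding RNA gene CR32773 held 112255, 82497 and 87399 (5008 ± 655 CPM). A further CR32773 peak was 93.9-fold lower on mean CPM. The integrin gene mew held 90820, 66491 and 108169 reads (4728 ± 1132 CPM) in an intron 18184 bp from its nearest start. The spread between libraries exceeded the steps between the high peaks of these genes, so the order of the high peaks was not fixed.

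At the other end, a peak of pyd, which encodes the fly ZO-1 protein of cell junctions, held 138, 132 and 75 reads (6.12 ± 1.77 CPM) at chr3R:8928846-8929278. It was the lowest of all 1122 coherent peaks. Low peaks of mamo, a BTB zinc finger gene, and of CG32816 held 10.1 ± 1.02 and 13 ± 4.73 CPM. The low mamo and pyd peaks lay 2950 and 2834 bp from a start of their gene, and all 3 low peaks lay in introns. Each of these genes also held a higher peak of the class. In pyd it held 529 ± 350 CPM, at chr3R:8840667-8842726. On mean CPM the higher peak stood 86.4-fold above the low one in pyd, 6.23-fold in mamo and 8.07-fold in CG32816.

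**Figure D2:**
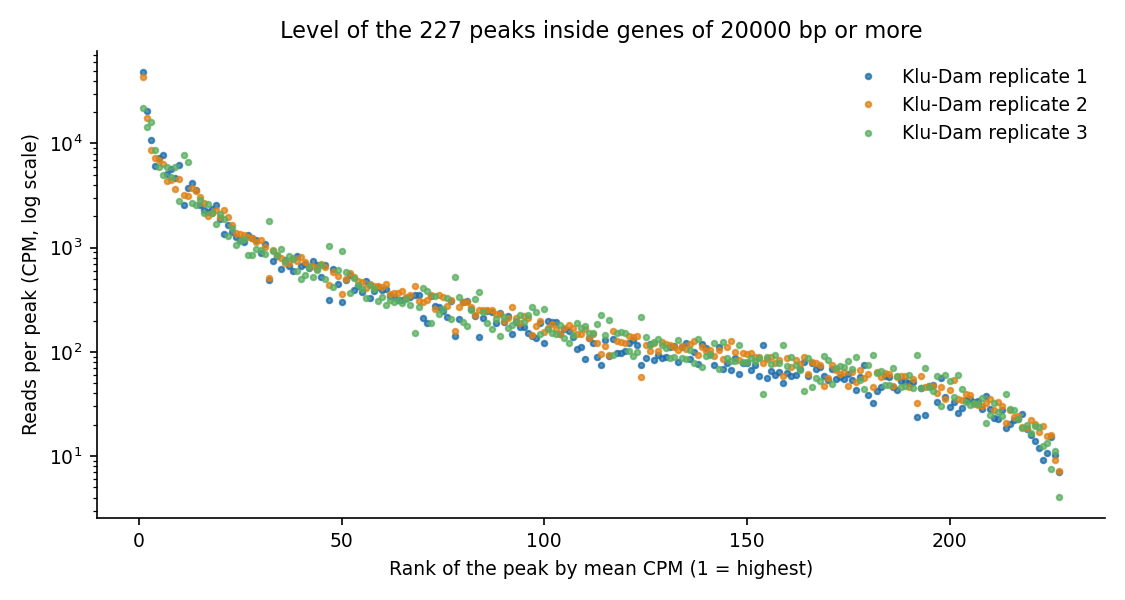
Reads per peak in CPM (log scale) for the 227 peaks inside genes of 20000 bp or more, ordered by their mean over the 3 libraries (1 = highest). Each peak has 1 point per Klu-Dam library. Levels ran from 37876 CPM in CG2022 to 6.12 CPM in pyd, and the points of single peaks in replicate 3 stand off from those of replicates 1 and 2.

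Taken as a class, the peaks inside long genes were somewhat lower than the other peaks. Their median level was 121, 143 and 147 CPM in replicates 1, 2 and 3, against 147, 168 and 168 CPM in the other 895 coherent peaks. The difference of the medians was -0.28, -0.23 and -0.19 on the log2 scale, or -0.24 ± 0.05 (SD, n = 3). It had the same sign in 3 of 3 libraries, and the exact two-sided sign-flip permutation test gave p = 0.25, the smallest value that 3 libraries allow. The libraries share 1 set of peaks, so this SD does not cover the choice of peaks. Against the 311 peaks inside shorter genes, whose medians were 116, 134 and 147 CPM, the difference was 0.05 ± 0.04 (exact sign-flip permutation p = 0.25). Divided by peak width this difference turned to -0.19 ± 0.11, and divided by the number of GATC fragments it was 0.34 ± 0.12. The difference from the other peaks was -0.31 ± 0.01 per width and -0.09 ± 0.05 per fragment. The peaks inside shorter genes were narrower, with a median of 1410 bp against 1734 bp. The class held 18.8 ± 1.11% of the reads in coherent peaks (SD, n = 3) while making up 20.2% of the peaks, and 11 of its peaks stood among the 50 highest.

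**Figure D3:**
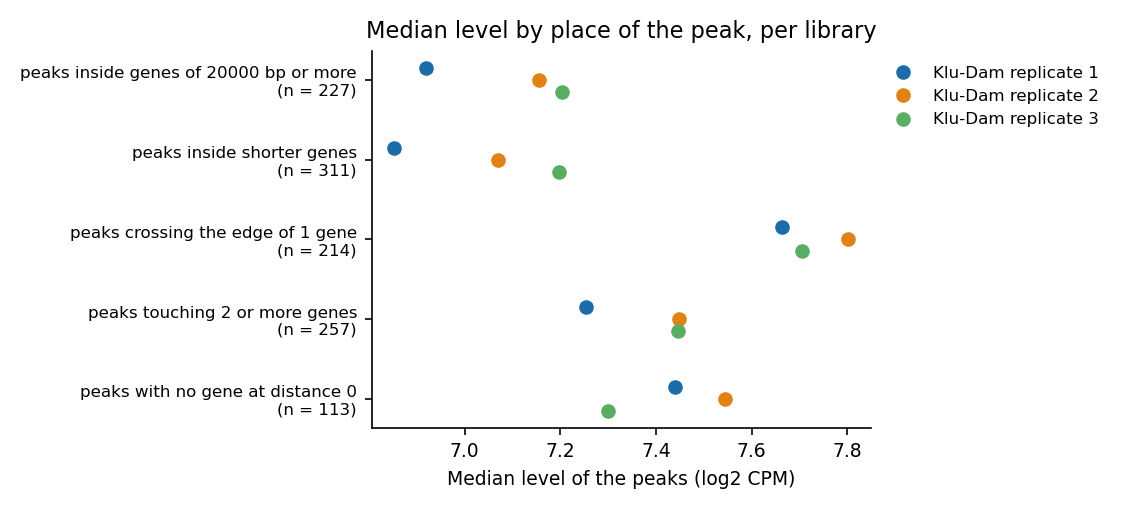
Median level (log2 CPM) of 5 classes of coherent peaks by their place relative to the listed genes, with 1 point per Klu-Dam library. Peaks inside long and inside shorter genes had the lowest medians in each library, and peaks that cross the edge of 1 gene had the highest.

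Peaks inside long genes lay mostly in introns, which also make up most of the length of these genes. The midpoint fell in an intron or non-coding exon in 148 of 227 peaks (65.2%, exact interval 58.6 to 71.4%), against 21% of the other peaks. Of the bases of the same genes 76.1% are of that kind, and of their GATC sites 63.4%, so the share in peaks was close to that of the sites at which DamID can read. Coding exons held 19.4% of the midpoints and 22.0% of the GATC sites. Windows reaching 500 bp to each side of any transcript start held 10.6% of the midpoints and 8.85% of the GATC sites, and 3′ UTRs held 3.08 and 4.31%. Promoter windows held 30.8% of the midpoints of the other peaks. These include peaks that cross the edge of 1 gene (39.3%) or touch 2 or more genes (48.6%), which the rule leaves out. In the 311 peaks inside shorter genes, promoter windows held 9.97% of the midpoints, so the low promoter share was not particular to long genes. Introns or non-coding exons held 37.9% of the midpoints of those 311 peaks.

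Distance to the starts of the same gene could be measured for 222 peaks that lay inside the reference model of their gene. Their median distance to the nearest start was 8060 bp, against 9802 bp for the GATC sites of the same genes. Of the 222 peaks 16 (7.21%) lay within 500 bp of such a start and 90 (40.5%) within 5000 bp, against 4.03 and 31.7% of the GATC sites. The furthest from any start of its own gene was a peak in the non-coding RNA gene CR44357, at 123594 bp. In the longest transcript of each gene, 178 midpoints lay in an intron, of which 56 (31.5%) lay in the first intron, which holds 27.1% of the intron bases of these genes. These introns had a median length of 15358 bp, and 119 of the 178 (66.9%) spanned 10000 bp or more. Cut from 5′ to 3′ into 5 equal stretches, the genes held 18.5, 18.5, 16.2, 18.0 and 28.8% of the peaks and 18.3, 19.2, 18.8, 19.4 and 24.3% of the GATC sites. The last stretch was the fullest for both, and the interval of its share of peaks, 23.0 to 35.3%, includes that of the sites.

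**Figure D4:**
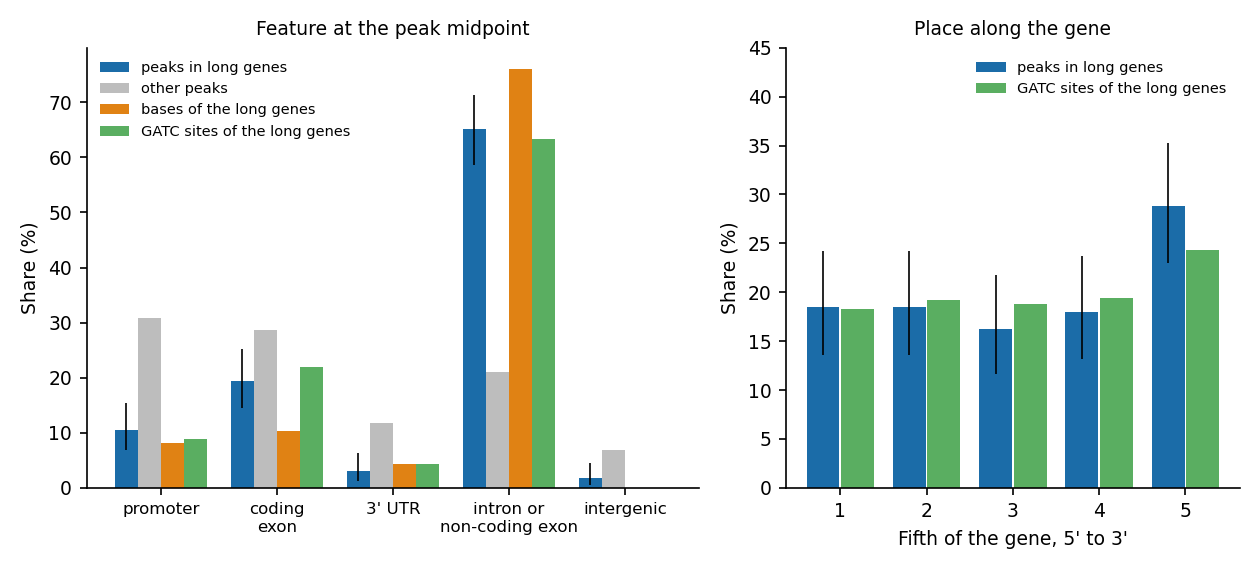
Left, share (%) of peak midpoints by annotated feature for the 227 peaks inside long genes (blue, with 95% exact intervals) and the other 895 peaks (grey), beside the share of the bases (orange) and GATC sites (green) of the long genes. Right, share (%) of 222 peaks and of GATC sites by stretch of 20% of the gene length. Intron shares of 65.2% and 63.4% stand side by side, and the last stretch holds 28.8% of the peaks and 24.3% of the sites.

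Most long genes held no peak of this kind. Of the 1039 reference genes of 20000 bp or more, 178 held at least 1 (17.1%). The share rose with length, from 12.6% of 357 genes of 20000 to 30000 bp to 25.8% of 89 genes over 100000 bp. Per 100 kb of gene the number of peaks fell over the same classes, from 0.572 to 0.215. Longer genes thus offered more room but held fewer peaks of this class per length. Peaks in a long gene that also touched another listed gene are left out by the rule and were not counted. The longest gene was kirre, an immunoglobulin-type adhesion gene used in myoblast fusion, which spans 394149 bp. Its peaks held 2196 ± 468 and 1640 ± 331 CPM and lay in introns of 132044 and 121519 bp of its longest transcript, the second over the nested gene CG32795. The long non-coding RNA genes CR44357 and CR32773 followed. CR44357 held 1394, 1359 and 970 reads in its peak (66.2 ± 11.6 CPM).

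Counted over 6 lists of genes by role, 39 of 156 listed genes of 20000 bp or more held a peak (25%), against the 17.1% over all such genes. Of 35 regulators of transcription and chromatin 12 held one (34.3%), of 19 cytoskeleton and motor genes 7 (36.8%), of 23 RNA-binding genes 6 (26.1%), of 27 signalling genes 7 (25.9%) and of 27 adhesion, guidance and matrix genes 6 (22.2%). Of 25 listed channel, transporter and synaptic genes only KCNQ did (4.0%). Trpm, Ca-beta and SLO2 (CG42732), channel genes not on this list, also held peaks of the class. The 4.0% therefore depends on the genes chosen for the list. Listed genes of 20000 bp or more had median lengths of 45363, 33857, 92306, 39477, 57603 and 43831 bp, in the order of the lists above. Over all reference genes of 20000 bp or more the median was 37168 bp, and the shares were not matched for length. The lists were written with earlier results of these data known and the differences between these shares were not tested.

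Among the 12 genes of the transcription list, sbb, which encodes a transcriptional corepressor, had the highest level. Its peak held 42852, 36748 and 48077 reads (2275 ± 313 CPM) in a coding exon. The ecdysone-response gene Eip74EF, an ETS factor, held a peak 35 bp from one of its starts with 13365, 11305 and 11243 reads (638 ± 40.0 CPM) and an intronic one with 186 ± 73.5 CPM. The nuclear receptor gene svp held 385 ± 65.8 CPM. The insulin-pathway factor foxo held 292 ± 44.4 and 102 ± 29.1 CPM, both in introns. The homeobox gene hth held 220 ± 45.8 and 52.7 ± 6.37 CPM, and the BTB gene psq held 265 ± 60.3 and 105 ± 14.4 CPM.

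The remaining regulators of the list held between 43.9 and 204 CPM. The Krüppel-like factor gene luna held 204 ± 51.9 CPM in an intron of 108407 bp, bun, of the TSC22 family, 70.8 ± 4.36 CPM, and zfh2 43.9 ± 12.7 CPM in the single peak of the class on chromosome 4. The ETS gene pnt, an effector of EGFR signalling, held 972, 1070 and 2135 reads (74.9 ± 36.2 CPM). The Fos gene kay held 1468, 1056 and 3951 reads (116 ± 86.4 CPM), and the nuclear receptor gene Eip75B 1770, 1696 and 3729 (129 ± 64.4 CPM). In pnt, kay and Eip75B replicate 3 exceeded both of the other libraries, and all 3 peaks carried the run.

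In the signalling list the Wingless receptor gene fz2 stood highest, with 17394, 21531 and 17457 reads (1007 ± 151 CPM) in an intron of 14145 bp. Egfr, the epidermal growth factor receptor gene, held 2370, 2834 and 4740 reads (178 ± 71.4 CPM) within 496 bp of one of its starts. Mob2, a cofactor of NDR kinases, held 158 ± 17.9 CPM, and the JNK pathway kinase gene msn held 140 ± 16.1 and 58.1 ± 18.4 CPM. The GSK3 gene sgg held 46.3 ± 0.552 CPM, the insulin receptor gene InR 441, 445 and 417 reads (23.2 ± 0.97 CPM) and the kinase gene Src42A 27.5 ± 5.16 CPM. The InR and sgg peaks were low and even between libraries, and InR was among the lowest of the class.

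In the adhesion and matrix list mew and kirre, given above, were the highest. The perlecan gene trol held 25906, 23135 and 15457 reads (1145 ± 264 CPM) in a coding exon and 101 ± 26.4 CPM in an intron. The apical polarity gene sdt held 143 ± 49.4 CPM, the guidance receptor gene lea (robo2) 120 ± 21.7 and 56.4 ± 7.83 CPM, and the teneurin gene Ten-m 75.5 ± 9.74 CPM. In the cytoskeletal list the talin gene rhea held 15036, 12899 and 13795 reads (742 ± 33.4 CPM) in a coding exon, in a peak that overlapped mir-190. The titin gene sls held 8364, 8760 and 8120 reads (450 ± 26.1 CPM), the tropomyosin gene Tm1 408 ± 78.9 CPM and the spectraplakin gene shot 105 ± 25.4 CPM. The ezrin-radixin-moesin gene Moe held 273, 369 and 356 reads (17.9 ± 3.38 CPM) in its 3′ UTR. The formin gene Fhos held 2 peaks 1162 bp apart that differed 9.96-fold in mean CPM, with the same order in 3 of 3 libraries.

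The RNA-binding genes had levels from 44.1 to 658 CPM, where the quartiles of the class were 64.5 and 404 CPM. The highest was bol, of the DAZ family, with 13704, 13306 and 10010 reads (658 ± 98.5 CPM), followed by the poly(C)-binding protein gene mub with 383 ± 44.3 CPM. Imp, whose product binds mRNA and marks young stages of fly neuroblasts, held 2767, 2916 and 9511 reads (273 ± 212 CPM), with replicate 3 above the rest. The neural stem cell gene msi held 101 ± 8.79 CPM, Syp 62.4 ± 8.27 CPM and the translational repressor gene pum 44.1 ± 12.9 CPM. The potassium channel gene KCNQ held 16142, 13537 and 10974 reads (722 ± 116 CPM) in its first intron and 466, 591 and 1726 reads (50.1 ± 38.3 CPM) near its 3′ end. In replicate 3 the first was the lowest of its libraries and the second the highest.

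In 36 genes more than 1 peak of the class was found, and the peaks of a gene could differ widely. The median fold between the highest and the lowest peak of a gene, on the mean CPM, was 4.67 (range 1.05 to 214), and the outermost peaks lay a median of 18317 bp apart. The order was the same in all 3 libraries in 32 of the 36 genes. In hiw, which encodes a ubiquitin ligase that limits synapse growth, the 4 peaks held 2838 ± 264, 311 ± 101, 41.6 ± 11.5 and 13.2 ± 2.42 CPM. The fold between the highest and the lowest was 239, 199 and 212 in replicates 1, 2 and 3. In cv-c, 1 peak of 6719 ± 666 CPM stood beside peaks of 94.8 ± 23.7, 52.0 ± 6.79 and 35.8 ± 7.60 CPM, with folds of 250, 202 and 136. The high peaks of hiw and cv-c carried the run and their lowest did not.

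The 3 genes with 3 peaks each were more even than hiw and cv-c. The kinase gene Doa held 723 ± 105, 257 ± 56.5 and 196 ± 24.8 CPM, in this order in each library, with a fold of 3.69 between the outer levels. In Msp300, a nesprin gene that anchors nuclei in muscle, the peaks held 49.4 ± 8.20, 40.4 ± 17.7 and 18.4 ± 3.50 CPM, and the upper pair changed places in replicate 3. In gukh, a scaffold gene of synapses and epithelia, they held 338 ± 22.2, 93.3 ± 29.1 and 92.9 ± 17.4 CPM, and the lower pair did not keep its order. In gukh the highest peak was the one without the run.

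**Figure D5:**
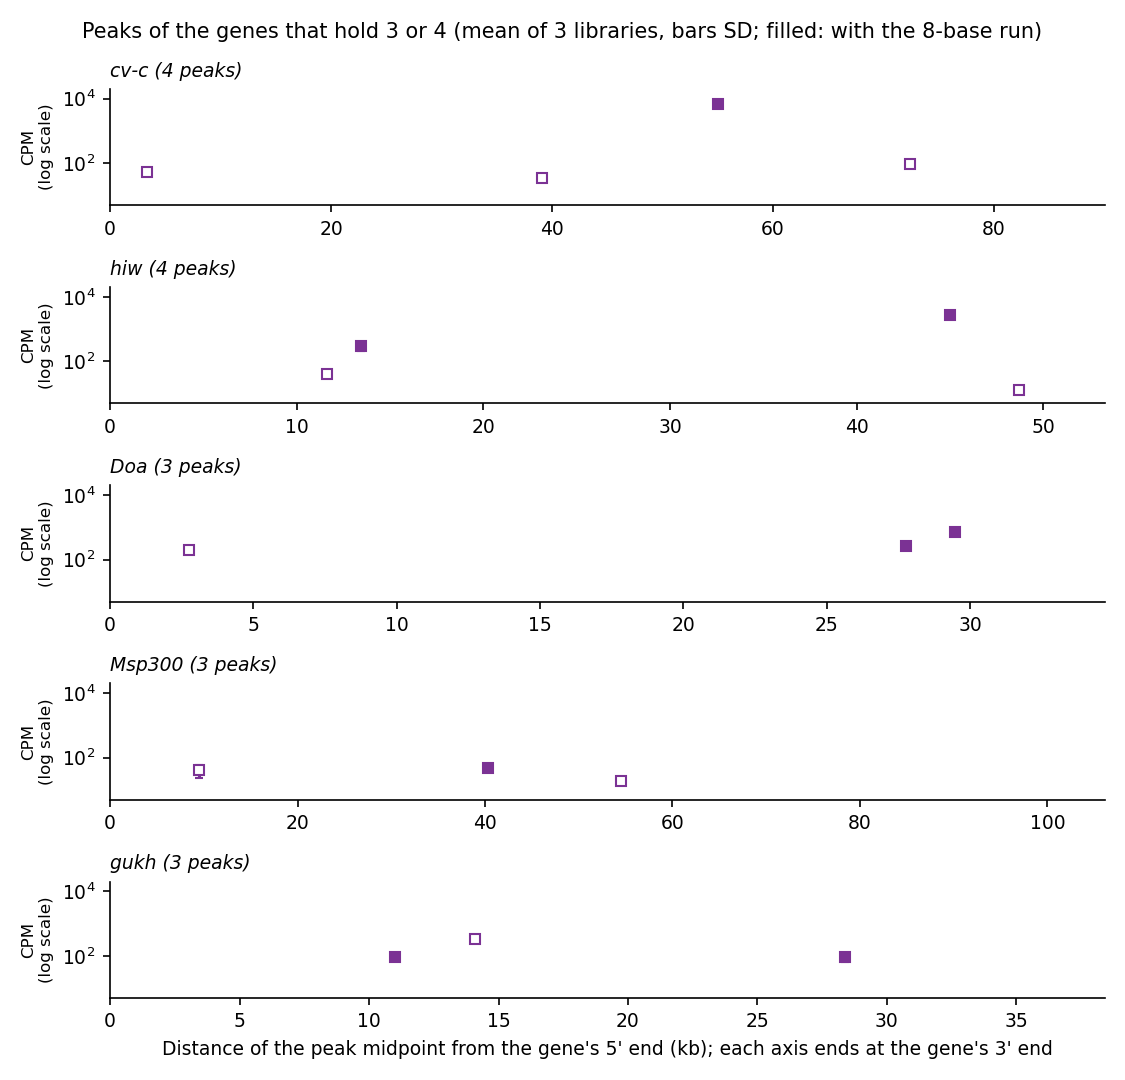
Level in CPM (log scale, mean of 3 libraries with SD bars, some smaller than the symbol) against the distance of the peak midpoint from the 5′ end of the gene (kb) for the 5 genes with 3 or 4 peaks. Filled squares carry the 8-base run. In cv-c and hiw single peaks of 6719 and 2838 CPM stand above neighbours of 311 CPM or less, while in Doa, Msp300 and gukh the levels lie within 4-fold of each other.

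Just inside the length limit, RhoGAP71E (20266 bp) held 333 ± 29.7 CPM, Grip (20421 bp) 653 ± 12.1 CPM and CycE 6336 ± 1375 CPM in its higher peak. Just outside it, Pka-R1 (19931 bp) held 253 ± 6.45 CPM, CG14441 (19882 bp) 109 ± 30.0 CPM and CG33143 (19757 bp) 215 ± 26.7 CPM.

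Replicate 3 differed more from the other libraries than they did from each other. Over the class the median coefficient of variation of CPM was 17.6%, against 16.4% in the other peaks, and it was 15.8% without replicate 1, 19.1% without replicate 2 and 11.1% without replicate 3. The SD over the peaks of the log2 ratio of replicate 3 to replicates 1 and 2 was 0.56, and that of replicate 2 to replicate 1 was 0.28. In the other peaks these SDs were 0.55 and 0.27. In 11 of the 227 peaks replicate 3 was more than 2 times the mean of replicates 1 and 2, and in 5 it was under 0.5 times that mean. The largest such excess was in fry, a scaffold gene for NDR kinases, with 9643, 9407 and 33424 reads. Sulf1, a heparan sulfate sulfatase gene, held 50008, 58146 and 143276 reads, and its peak overlapped the small genes CG17929 and CG17930. The largest deficit was in Ac13E, an adenylate cyclase gene, with 6929, 7909 and 2769 reads. These genes were named after their values were seen. The first of these 3 peaks carried the run at an edge site and the other 2 carried none. Per the study's methods, the reproducibility of peaks was tested between replicates 1 and 2, a step that could favour peaks on which these 2 agree. Replicates were also prepared on different dates. The parts of that step and of the date were not tested.

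The gene listed for a peak was not always the only one there. Of the 227 peaks 29 (12.8%) overlapped a further reference gene, and 14 (6.17%) a further protein-coding gene. An annotated transposon was overlapped by 6 peaks (2.64%), against 3.24% of the other peaks. For 5 peaks the reference model of the listed gene did not contain the peak. Of these, 4 were listed with CR40741, whose listed span of 23250911 bp covers nearly all of the X chromosome, whereas the reference gives it as a short ribosomal RNA pseudogene. The fifth was listed with Sdic4, which is also short in the reference. The X chromosome supplied 57 peaks of the class, 25.9% of its coherent peaks, while 3R gave 23.1%, 2L 17.3%, 2R 17.0% and 3L 16.1%. The 57 include the 4 peaks listed with CR40741, so the share of X rests in part on that listed span.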

How the data were processed

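The deposited peak tables hold whole-number read counts per peak for Klu-Dam replicates 1, 2 and 3, not scaled for depth, width or Dam-only signal. Per the study's methods, the authors aligned reads to dm6 with bowtie2 inside damidseq_pipeline, called peaks on log2 ratios of Klu-Dam over Dam-only, tested reproducibility with idr between replicates 1 and 2, and attached nearby genes with their own script (the tables list genes up to 2000 bp away). The submitters' processing notes also name HOMER. How reads were counted over peaks, and tool versions, are not given in the sources used here. Peak starts are 0-based in the table and are printed 1-based.

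CPM was computed as reads over the sum of reads in coherent peaks, times 1000000. Features came from Ensembl release 115 (BDGP6, annotation 54) and bases from the RefSeq Release 6 genome, whose GATC sites match both edges of all 1122 peaks. A reference gene containing the peak was matched for 213 peaks by identifier, 8 by symbol and 1 by an older symbol. A midpoint counted as promoter within 500 bp of a start, and otherwise by the first feature covering it, with coding sequence ranked above introns. Levels were compared as differences of median log2 CPM per library, with an exact two-sided sign-flip permutation test over the 3 libraries. Shares carry 95% exact (Clopper-Pearson) intervals, which cover counting error only. They treat the peaks as independent, although 36 genes held more than 1. Amplified reads are not independent molecules. Word ranking and level differences were tested on simulated data. Software was scipy 1.17.1, matplotlib 3.10.9, pandas 2.3.3 and numpy 2.4.6 under Python 3.11.15.

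Named genes were those of the 10 highest and 3 lowest peaks, of genes with 3 or more peaks, of the 3 longest genes, of the role lists, and of the 3 peaks nearest the length limit on each side. T48, fry, Sulf1, Ac13E, Trpm, Ca-beta and SLO2 were named in addition, after their values were seen. Members, lists and this rule were chosen with earlier results of these data known. No count model was fitted, since the tables hold 1 group, and p-values measure only the spread between these pools.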

Additional observations from a re-analysis of the deposited data

How the results depend on the processing

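Of 59 alternatives, 3 reversed the direction and 8 moved a share, a spread or a count by more than its error or a set factor. The other 48 stayed on the same side, though sizes changed. The level against other peaks (-0.24) was -0.09 per GATC fragment and -0.11 with a gene length of 10000 bp, where 1 library turned to 0.004 (exact permutation p = 0.5). The level against peaks inside shorter genes (0.05) was 0.34 per GATC fragment and 0.38 with 10000 bp. The level against peaks inside shorter genes reversed to -0.19 log2 per kb of peak width, to -0.10 with a gene length of 50000 bp, and to -0.16 without peaks that hold the 8-base run, an alternative chosen after seeing the data. Without 1 replicate each, the difference from other peaks ranged from -0.26 to -0.21 and that from peaks inside shorter genes from 0.04 to 0.08. With a gene length of 10000 bp there were 345 peaks with 282 listed identifiers, and with 50000 bp 96 peaks with 70, against 227 and 180. The median coefficient of variation ranged from 11.1 to 19.1% without 1 replicate each, the lowest without replicate 3. Within 1000 bp of a start lay 17.6% of the midpoints, further coding genes alone were overlapped by 6.17% of the peaks, and the word GTGGGCG was held by 37.0%. These follow from how each alternative was built, and the cause of the reversals was not tested. No paired analysis was possible because the deposited tables hold counts for Klu-Dam only, so no groups share replicate numbers. The low peaks rest on few reads, with 75 in 1 library of the lowest.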

Other observations

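Compared with other coherent peaks, peaks inside long genes were richer in A and T words. The word TTTTCTTT was held by 41.9% of them, 24.0% of the other peaks and 42.1% of the windows from the same genes, so the peaks were like the genes around them. The word CAGCATTT was held by 25.6% of the peaks, 12% of the other peaks and 13.2% of the windows, and was the only word among the 10 leading ones in both rankings. Its share was not tested.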
